A study of Mus musculus with 20 samples.

Results

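The livers of 5 RYGB HFD and 5 Sham HFD mice were compared, which are 10 of the 20 mice of the study, chosen by the operation and the diet that the sample labels give. All were male C57BL/6 mice without a stated genetic change. Obesity was induced in every mouse by 12 weeks on a high-fat diet (HFD). Each mouse then had Roux-en-Y gastric bypass (RYGB, which leaves a small stomach pouch and routes food past the upper small intestine) or a sham operation, and these 10 stayed on HFD for 8 weeks. The 5 Sham Chow and 5 RYGB Chow mice had the same 12 weeks of HFD and were moved to chow after surgery, and they serve only to ask whether an effect on HFD differed from that on chow. The paper reports that the Sham HFD mice were heavier than all other groups and names this a confounding variable. In Sham HFD vs. RYGB HFD the operation and body weight therefore cannot be told apart. The question is which liver transcripts differ after bypass when the diet that caused the obesity goes on.

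The liver makes most plasma proteins, among them complement, clotting factors and the iron hormone hepcidin, and it sets the synthesis of fatty acids, cholesterol and bile acids. Many of its genes differ between male and female mice, because growth hormone is released in pulses in males and more steadily in females and acts through STAT5. Bulk liver RNA mixes hepatocytes with Kupffer, endothelial, stellate and bile duct cells, so fewer cells of a type and less RNA per cell cannot be told apart.

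In the 10 HFD libraries between 15474162 and 22537498 reads were counted on genes. Expression is given as CPM, a gene's count relative to the library's TMM-scaled total, and each difference as a log2 fold change of RYGB HFD over Sham HFD with its standard error, from edgeR's quasi-likelihood test with p-values adjusted over the 12289 genes tested (two-sided, called at 0.05). A gene was tested where 3 or more of the 20 mice reached 2 CPM, and 317 of them passed only through the Sham HFD mice and 130 only through the RYGB HFD mice. The labels name no batch. TMM factors were 1.05 to 1.06 in Sham HFD and 0.960 to 1.01 in RYGB HFD. The 10 most abundant genes held 16.3% to 17.7% of the counts in Sham HFD and 17.4% to 19.3% in RYGB HFD. All 7 hepatocyte markers were present and their summed level was 66983 to 80501 CPM in Sham HFD and 94011 to 112254 in RYGB HFD, where albumin (*Alb*) was higher by 0.48 on the log2 scale (adjusted p = 0.0162). Of these markers *Hnf4a* (0.49) and *Serpina1a* (0.68) were also higher and *Ttr*, the transthyretin gene, lower (-0.45).

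In Sham HFD vs. RYGB HFD, 1050 genes were higher in RYGB HFD (8.54% of those tested) and 971 were lower (7.90%), together 2021 (16.4%). Of the higher genes 151 differed by at least 2-fold and 43 by at least 4-fold, and of the lower genes 240 and 56. The median log2 fold change was 0.45 among the higher genes and -0.61 among the lower, and 0.0095 over all genes tested. The 5 RYGB HFD mice all lay above the 5 Sham HFD mice for 891 genes (7.25%) and all below for 913 (7.43%). When counts were scaled by library size alone, 542 genes were higher and 1497 lower, so that 26.6% of the called genes were higher in place of 52.0%.

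The 12 genes with the smallest p-values among those higher were led by the complement genes *C8b* and *C8a*, described below, and the others ranged from 1.02 (*Fetub*) to 7.57 (*Hsd3b5*) on the log2 scale. They include *Slco2a1* (1.08), a prostaglandin transporter, *Igfbp2* (2.78), an IGF-binding protein, *Fetub* (1.02), the plasma protein fetuin-B, *Tbc1d30* (1.92), a GTPase activator, the serpins *Serpina11* (1.18) and *Serpina1e* (4.32), and *Cyp2c67* (1.08). Among the lower genes the 12 were *Abhd3* (-0.99), *Ccng1* (-0.82), a p53 target, *Anxa2* (-2.17), a membrane-binding annexin, *Wfdc2* (-3.33), *Me1* (-2.05), the NADPH-forming malic enzyme, *Hamp2* (at 0 counts in all RYGB HFD mice), *Sema5b* (-2.25), *Rcan2* (-2.43), a calcineurin regulator, *Chpt1* (-0.91), which makes phosphatidylcholine, *Rsad2* (-1.41), an antiviral protein, *Ephx1* (-1.51), an epoxide hydrolase, and *Fbp1* (-0.58), a gluconeogenic enzyme. *Anxa2* measured 41.2, 62.9, 65.9, 45.3 and 57.6 CPM in the Sham HFD mice and 15.4, 9.06, 14.1, 11.002 and 10.965 in the RYGB HFD mice (log2 fold change -2.17, standard error 0.19, adjusted p = 5.37e-07). *Fetub* measured 251, 243, 229, 272 and 253 CPM in Sham HFD and 519, 497, 486, 506 and 526 in RYGB HFD (log2 fold change 1.02, standard error 0.092, adjusted p = 5.37e-07). In both genes the groups lay far apart beside the spread among the mice of either group. By size of change the leading higher genes after *Hsd3b5* were the urinary protein genes *Mup13* (5.18), *Mup8* (5.01) and *Mup19* (4.67), then *Tff3* (4.58) and *Prtn3* (4.51), a neutrophil protease gene. *Tff3* and *Prtn3* passed the filter only through the RYGB HFD mice. The call of *Mup19* was lost without RYGB HFD replicate 2 (adjusted p = 0.0993). With limma-voom the calls of *Mup19* (adjusted p = 0.248) and *Mup8* (adjusted p = 0.0707) were lost.

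The genes of 30 lists of liver pathways were then counted. Against a background of 8.54% higher and 7.90% lower, the share of tested members higher in RYGB HFD was 65.0% for male-biased growth hormone targets, 57.3% for cytosolic ribosomal proteins, 54.8% for coagulation, 53.3% for complement and 48.0% for cholesterol synthesis. The share lower was 60.0% for female-biased growth hormone targets (of 10 tested, 2 passed the filter only through Sham HFD), 56.3% for glutathione S-transferases and NRF2 targets, 45.2% for extracellular matrix (43.3% without a gene that passed likewise) and 42.9% for hepcidin control. With TMM scaling and all 20 mice, the lists with shares under the background in each direction were urea cycle and amino acid catabolism (1 higher and 2 lower of 41), oxidative phosphorylation (0 and 2 of 74), proteasome (0 and 2 of 34), endoplasmic reticulum stress (2 and 1 of 25), circadian clock (1 and 0 of 18) and cell cycle (0 and 0 of 15, 5 at an unadjusted p under 0.05). Their lower counts moved with the setting. With library size scaling 12.2% of all genes were lower, and 12 oxidative phosphorylation (16.2%), 6 urea cycle (14.6%), 5 of 25 endoplasmic reticulum and 4 proteasome genes (11.8%). With the 10 HFD mice alone 9.96% of all genes were lower, and 7 urea cycle (17.1%), 5 of 25 endoplasmic reticulum and 4 oxidative phosphorylation genes (5.41%). Without RYGB Chow replicate 3, 5 urea cycle genes were lower. DESeq2 called 2 cell cycle genes lower and limma-voom 3.

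**Figure D1:**
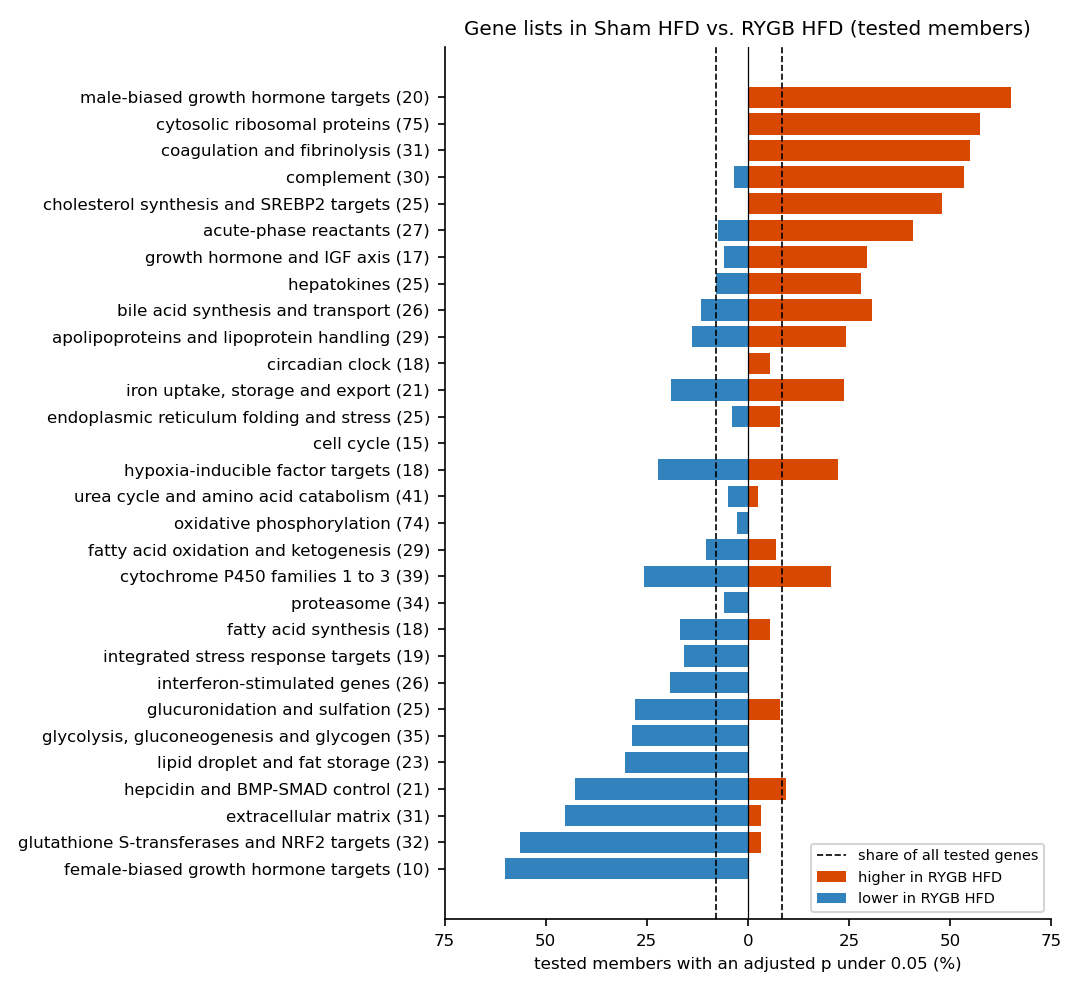
Percentage of the tested members of each gene list that were called higher (to the right) or lower (to the left) in RYGB HFD than in Sham HFD, with the number of tested members in parentheses and dashed lines at the shares of all tested genes, 8.54% and 7.90%. Male-biased growth hormone targets reach furthest to the right with 65.0% and female-biased targets furthest to the left with 60.0%. Of the 10 female-biased targets, 2 passed the filter only through the Sham HFD mice, and without them 4 of 8 were lower. That share is under the 18 of 32 of the glutathione S-transferases and NRF2 targets, so the leftmost place rests on those 2.

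The sex-biased targets of growth hormone moved in opposite directions, male-biased genes up and female-biased genes down in RYGB HFD. Of 20 male-biased genes, all of them tested, 13 were higher, 0 lower, and the median log2 fold change was 1.62. *Hsd3b5* (ENSMUSG00000038092, chromosome 3 from 98618634 to 98630252 on GRCm38), a ketosteroid reductase of the male liver, measured 4.87, 0.370, 0.507, 0.0599 and 0.0438 CPM in the 5 Sham HFD mice and 141, 223, 169.6, 318 and 183 in the 5 RYGB HFD mice. It was under a floor of 3 counts in 2 Sham HFD mice, and its difference of 7.57 on the log2 scale (standard error 0.75, adjusted p = 2.14e-06) was the largest of the genes called higher. The alpha-1-antitrypsin gene *Serpina1e* measured 517, 116, 129, 91.2 and 133 CPM in Sham HFD and 5096, 3063, 2561, 4921 and 4056 in RYGB HFD (log2 fold change 4.32, standard error 0.45, adjusted p = 3.19e-06).

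*Slco1a1*, an organic anion transporter, measured 234, 33.1, 49.4, 25.5 and 10.4 CPM in Sham HFD and 435, 649, 543, 701 and 724 in RYGB HFD (log2 fold change 3.12, standard error 0.53, adjusted p = 4.06e-04). *Cyp7b1*, an oxysterol hydroxylase, measured 114, 71.8, 52.1, 80.3 and 60.6 CPM in Sham HFD and 184, 202, 173, 354 and 238 in RYGB HFD (log2 fold change 1.60, standard error 0.27, adjusted p = 4.09e-04). In these 4 genes every RYGB HFD mouse lay above every Sham HFD mouse. Also higher were *Cyp4a12b* (4.02, adjusted p = 2.36e-04), the major urinary protein gene *Mup7* (3.28, adjusted p = 0.00280), *Selenbp2* (2.92, adjusted p = 0.00385), *Susd4*, a complement inhibitor (1.87, adjusted p = 2.62e-04), and *C6* (1.77, adjusted p = 4.34e-05). *Cyp2d9*, the first gene of the list, was at 0.25 (adjusted p = 0.423), and its groups overlapped. Sham HFD replicate 1 was the highest Sham HFD mouse in 12 of the 13 genes, and without it 15 of the 20 were called. *Mup*, *Serpina1* and *Cyp4a* genes are near copies whose reads the counting may have divided, so their single values are uncertain.

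Of 21 female-biased genes 10 were tested, and 6 of these were lower and 0 higher. *Cyp2b13* and *Hao2* passed the filter only through the Sham HFD mice, and without them 4 of 8 were lower. The cytochrome P450 gene *Cyp2b9* measured 80.6, 219, 274, 328 and 395 CPM in Sham HFD and 8.43, 8.69, 4.32, 7.93 and 8.57 in RYGB HFD (log2 fold change -5.09, standard error 0.73, adjusted p = 7.45e-05). *Cyp2a4*, a steroid hydroxylase, measured 12.6, 26.2, 17.7, 16.1 and 38.5 CPM in Sham HFD and 0.435, 1.04, 0.231, 0.0591 and 0.266 in RYGB HFD (log2 fold change -5.70, standard error 0.77, adjusted p = 4.62e-05). *Slc22a27*, an organic anion transporter, measured 17.2, 26.2, 25.1, 22.3 and 38.5 CPM in Sham HFD and 4.79, 1.67, 3.40, 1.48 and 1.33 in RYGB HFD (log2 fold change -3.34, standard error 0.40, adjusted p = 1.32e-05). Every Sham HFD mouse lay above every RYGB HFD mouse in these 3 genes. *Cyp2b13* had 0 counts in every RYGB HFD mouse and 2.49 to 10.5 CPM in Sham HFD, which is at least 43.6-fold higher than a floor of 3 counts per library. *Hao2*, a peroxisomal oxidase, was at -5.34 (adjusted p = 2.71e-05), and *Ntrk2*, a neurotrophin receptor, at -2.96 (adjusted p = 2.95e-04). Of the 11 members not tested, *Cyp3a16*, *Cyp3a41a*, *Cyp3a44*, *Sult2a1*, *Sult2a2* and *Cyp3a41b* had at most 4 counts in any HFD mouse.

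In the growth hormone axis itself, the receptor gene *Ghr* was at -0.11 (standard error 0.096, adjusted p = 0.481), while 5 of 17 genes were higher and 1 lower. *Igf1*, the hormone-induced growth factor, measured 476, 572, 459, 375 and 411 CPM in Sham HFD and 596, 623, 707, 569.6 and 626 in RYGB HFD (log2 fold change 0.44, standard error 0.11, adjusted p = 0.00588). Its groups overlapped by a single mouse on each side. *Igfals*, which stabilises circulating IGF, was higher by 0.45 (adjusted p = 0.0169), *Socs2*, a feedback inhibitor of the receptor, by 1.504 (adjusted p = 0.0195), and *Igfbp3* was at -0.74 (adjusted p = 0.0150). *Igfbp2* measured 196, 151, 151, 205 and 129 CPM in Sham HFD and 765, 1283, 802, 1195 and 1653 in RYGB HFD, 6.85-fold higher (adjusted p = 5.07e-07). The count of higher genes of this list was 3 with library size scaling and 2 without RYGB HFD replicate 2, where *Socs2* was at an adjusted p of 0.0685 and *Igfals* was also lost. *Egfr*, the growth factor receptor, stands outside the lists and was chosen after its values were seen: it measured 98.0, 126, 99.1, 55.8 and 41.0 CPM in Sham HFD and 759, 318, 378, 809.5 and 829.6 in RYGB HFD (log2 fold change 2.88, standard error 0.35, adjusted p = 1.80e-05).

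On chow 7 of the 12289 genes (0.0570%) were called and 1325 (10.8%) had an unadjusted p under 0.05. There 0 of the 20 male-biased genes were called (0 at an unadjusted p under 0.05), with a median log2 fold change of -0.26, and 0 of the 10 female-biased genes (1 at an unadjusted p under 0.05), with a median of 0.40. The surgery by diet interaction, the effect on HFD less that on chow, was called for 11 of the 20 male-biased genes, all higher on HFD, and for 4 of the 10 female-biased genes, all lower, where 2.48% and 2.58% of all tested genes were called. It was 7.86 for *Hsd3b5* (adjusted p = 7.09e-05), 4.02 for *Serpina1e* (adjusted p = 4.94e-04) and -8.64 for *Cyp2a4* (adjusted p = 1.59e-04). *Hsd3b5* was at 1.17 ± 2.08 CPM in Sham HFD (mean ± SD of 5 mice) against 146 ± 64.2 in Sham Chow, 119.5 ± 79.6 in RYGB Chow and 207 ± 68.6 in RYGB HFD. In *Cyp2b9* the means were 259.6, 6.17, 11.002 and 7.59 CPM in the same order. Sham HFD had the lowest mean of the 4 groups in *Hsd3b5* and the highest in *Cyp2b9*.

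**Figure D2:**
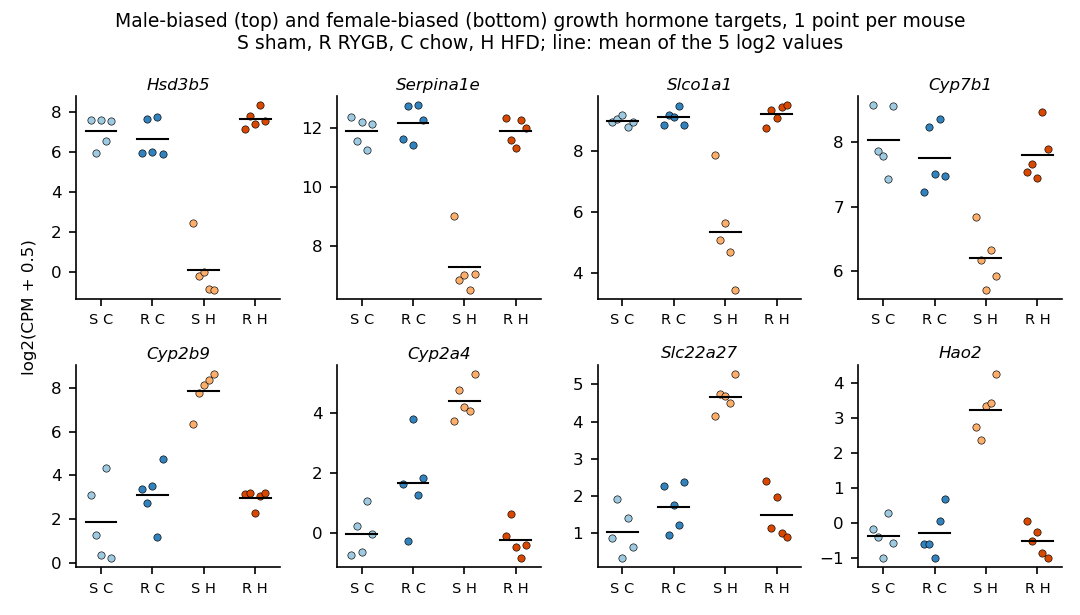
Expression of 4 male-biased (top row) and 4 female-biased (bottom row) growth hormone targets as log2(CPM + 0.5), with a point per mouse, a line at the mean of the 5 log2 values, the chow groups on the left, the HFD groups on the right and sham before RYGB in each pair. In the top row the Sham HFD mice lie lowest, *Hsd3b5* at 4.87 CPM or less, and in the bottom row they lie highest, apart from 1 RYGB Chow mouse of *Cyp2a4*.

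Complement and clotting genes, which hepatocytes secrete into plasma, were higher in RYGB HFD. Of 30 complement genes 16 were higher and 1 lower, with a median log2 fold change of 0.35, and of 31 coagulation genes 17 were higher and 0 lower, with a median of 0.28. The largest changes were in the terminal pathway, whose proteins form the membrane attack pore. *C8a* (ENSMUSG00000035031, chromosome 4 from 104815679 to 104876398) measured 438, 357, 305, 306 and 249 CPM in the Sham HFD mice and 1000.1, 1045, 1169, 1027 and 1020.3 in the RYGB HFD mice (log2 fold change 1.67, standard error 0.12, adjusted p = 7.02e-08). *C8b*, its partner subunit, measured 100.4, 77.0, 61.7, 70.0 and 59.4 CPM in Sham HFD and 277, 312, 264, 377 and 321 in RYGB HFD (log2 fold change 2.07, standard error 0.16, adjusted p = 7.02e-08). *C6* was at 1.77 and *Hc*, which encodes C5, at 0.80 (adjusted p = 4.34e-05 and 6.04e-05). The central component *C3* measured 4572, 5022, 4661, 5002 and 4419 CPM in Sham HFD and 8808, 8838, 10785, 8776 and 11031 in RYGB HFD, 2.04-fold higher (log2 fold change 1.03, standard error 0.11, adjusted p = 3.19e-06). In all 5 of these genes every RYGB HFD mouse lay above every Sham HFD mouse.

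*Vtn*, which encodes the terminal pathway inhibitor vitronectin, was higher by 0.59 (adjusted p = 1.43e-05). The lower gene was the lectin *Mbl2*, at -0.48 (adjusted p = 0.00743). The fibrinogen chains were higher by 0.84 (*Fgb*), 0.75 (*Fgg*) and 0.68 (*Fga*) on the log2 scale. *Fgb* measured 2685, 3411, 2811, 2957 and 2819 CPM in Sham HFD and 4831, 5346, 5477, 4983 and 5628 in RYGB HFD (adjusted p = 8.67e-06). *F11*, the clotting factor XI gene, measured 52.4, 49.3, 37.1, 56.4 and 61.3 CPM in Sham HFD and 103, 146, 118, 127 and 125 in RYGB HFD (log2 fold change 1.27, standard error 0.24, adjusted p = 8.99e-04). *Kng1*, the kininogen gene, was higher by 0.65, *F10* by 0.55 and *Plg*, the plasminogen gene, by 0.48 (adjusted p = 2.71e-05, 1.89e-04 and 2.62e-04). With library size scaling, 13 complement and 14 coagulation genes were higher.

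On chow 0 genes of either list were called (4 complement genes and 1 coagulation gene at an unadjusted p under 0.05), and the medians were 0.054 for complement and -0.045 for coagulation. The interaction was called for 10 complement and 12 coagulation genes, all higher on HFD, among them *C8b* (2.19, adjusted p = 1.99e-05), *C8a* (1.52, adjusted p = 6.69e-05), *C3* (0.91, adjusted p = 0.00180), *Fgb* (0.86, adjusted p = 0.00120) and *F11* (1.47, adjusted p = 0.0136).

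**Figure D3:**
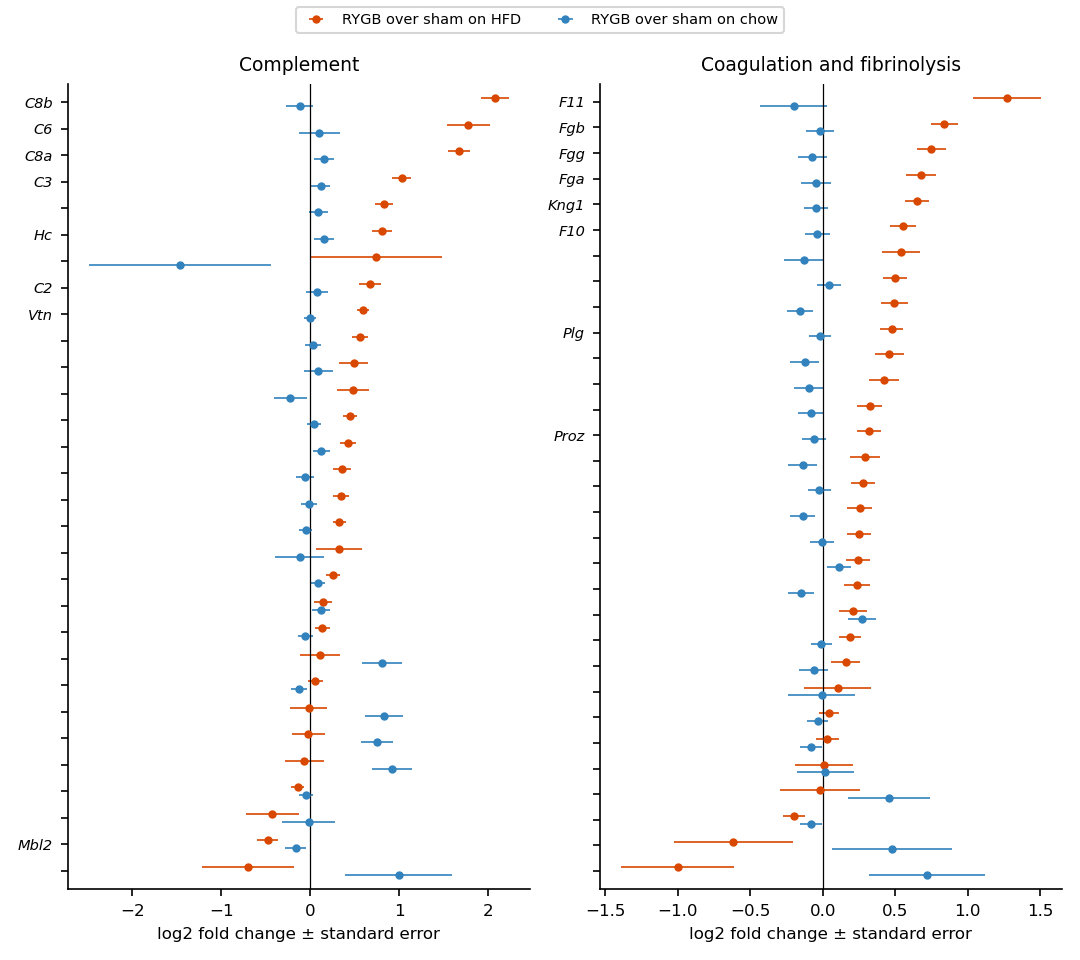
Log2 fold change of RYGB over sham, with its standard error, on HFD (orange) and on chow (blue) for 30 complement genes (left) and 31 coagulation and fibrinolysis genes (right), sorted by the change on HFD, with symbols for some genes. *C8b* lies at 2.07 on HFD and -0.12 on chow, and most chow values lie near 0.

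Among 27 acute-phase genes 11 were higher and 2 lower. *Itih3*, which binds hyaluronan, was higher by 1.10 (adjusted p = 1.80e-05), the serpin *Serpina3k* by 1.01 (adjusted p = 7.28e-04) and the interleukin-1 receptor *Il1r1* by 1.63 (adjusted p = 7.53e-04). Serum amyloid A, an inducible acute-phase protein, went the other way in *Saa2* (-1.37, adjusted p = 0.0318), was at -0.55 (adjusted p = 0.367) in *Saa1*, and the orosomucoid gene *Orm3*, which passed the filter only through the Sham HFD mice, was at -1.88 (adjusted p = 0.00530). *Saa2* lost its call in 5 of the 20 fits without 1 mouse. Of 25 hepatokines, proteins by which the liver signals to other organs, 7 were higher and 2 lower, and the lower count ran from 1 (limma-voom, or without Sham HFD replicate 5 or RYGB HFD replicate 3) to 6 (DESeq2, or the 10 HFD mice alone). *Enho*, which encodes adropin, measured 8.17, 7.12, 5.15, 9.47 and 9.82 CPM in Sham HFD and 27.8, 29.8, 20.5, 35.1 and 44.3 in RYGB HFD (log2 fold change 1.99, standard error 0.26, adjusted p = 3.86e-05). *Inhba*, an activin subunit, was higher by 1.81 and *Ahsg*, which encodes fetuin-A, by 0.78 (adjusted p = 6.34e-06 and 9.45e-06).

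The largest falls were in the hepcidin genes. *Hamp* (ENSMUSG00000050440, chromosome 7 from 30942368 to 30944032) encodes hepcidin, which blocks iron export into plasma, and *Hamp2* (ENSMUSG00000056978, chromosome 7 from 30922372 to 30924681) is a neighbouring copy. *Hamp* measured 403, 437, 298, 231 and 265 CPM in Sham HFD and 0.163, 0.521, 0.115, 0.0591 and 0.0665 in RYGB HFD (log2 fold change -10.66, standard error 1.65, adjusted p = 1.66e-04). *Hamp2* measured 12.3, 21.3, 34.5, 37.1 and 54.3 CPM in Sham HFD and had 0 counts in all 5 RYGB HFD mice, so that it was at least 184-fold higher in Sham HFD than a floor of 3 counts per library. No mouse of one group came near the other. In *Hamp* every RYGB HFD mouse but replicate 2 was at or under 3 counts, so the size of -10.66 is uncertain. The copies are similar, and reads may have been divided between them.

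The 150 promoter bases before each start (GRCm38.p6, RefSeq, minus strand, 5′ to 3′) are chr7:30944030-30944179 for *Hamp* and chr7:30924182-30924331 for *Hamp2*, and they are shown because both genes fell together. Aligned end to end, 135 of 153 columns were identical (88.2%). Capitals mark TTCNNNGAA, the letters of a STAT site, which begin at base -97 in *Hamp* and -94 in *Hamp2*, and GGCGCC, the core of the BMP response element, which begins at -109 in *Hamp* and is not in the *Hamp2* window. On either strand, 4.09% of all promoter windows of this length hold the first and 7.01% the second. Neither was found in the windows of the 13 male-biased growth hormone targets, of 20, that have one, which says only that these letters are not there. A match is a string of letters and not a measured site, and the *Hamp2* window lies inside the longer GENCODE model of that gene.
Hamp: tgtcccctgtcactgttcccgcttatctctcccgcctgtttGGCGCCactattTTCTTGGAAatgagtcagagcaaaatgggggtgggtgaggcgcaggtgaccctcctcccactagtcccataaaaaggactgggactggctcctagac
Hamp2: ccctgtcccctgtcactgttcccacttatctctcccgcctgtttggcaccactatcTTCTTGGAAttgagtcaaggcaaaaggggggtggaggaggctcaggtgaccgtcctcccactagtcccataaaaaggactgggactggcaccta

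The BMP-SMAD pathway raises hepcidin when iron is high, and 9 of the 21 genes of the list were lower and 2 higher. *Id1*, a direct target of the pathway, measured 4.41, 7.86, 7.05, 4.37 and 4.95 CPM in Sham HFD and 2.99, 2.03, 0.807, 2.54 and 1.79 in RYGB HFD (log2 fold change -1.49, standard error 0.36, adjusted p = 0.00625). The targets *Atoh8* (-1.32, adjusted p = 0.00923) and *Id3* (-1.12, adjusted p = 0.0193) were also lower, as was the ligand gene *Bmp6* (-0.98, adjusted p = 0.0495), whose call was lost in 17 of the 20 fits without 1 mouse. The iron sensor *Hfe* was at -0.50 (adjusted p = 1.66e-04) and its partner *Tfr2* at 0.46 (adjusted p = 1.12e-04). Of 21 genes of iron handling 5 were higher and 4 lower. The ferritin heavy chain gene *Fth1* measured 1659, 1903, 1926, 1889 and 1937 CPM in Sham HFD and 1261, 1240.2, 1334, 1275 and 1332 in RYGB HFD (log2 fold change -0.53, standard error 0.077, adjusted p = 8.60e-05), and the light chain gene *Ftl1* was at -0.59 (adjusted p = 2.61e-04). *Trf*, the plasma iron carrier transferrin, was higher by 0.59 (adjusted p = 1.46e-04), and the receptor gene *Tfrc* by 2.30 (adjusted p = 6.29e-05). In ferritin, *Trf* and *Tfr2* the groups did not overlap. *Fth1* and *Ftl1* have processed copies elsewhere in the genome with which reads may be shared.

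On chow 0 genes of either list were called, and 7 of the hepcidin list (33.3%) and 5 of the iron list (23.8%) had an unadjusted p under 0.05, against 10.8% of all genes. The interaction was -9.93 for *Hamp2* (adjusted p = 0.00295), -7.51 for *Hamp* (adjusted p = 0.0283) and -0.46 for *Fth1* (adjusted p = 0.0185). *Hamp2* had 0 counts in all RYGB HFD mice and *Hamp* had few, so the sizes of both of these interactions are uncertain. Over the alternatives the *Hamp2* change on HFD ran from -12.3 to -9.96. *Hamp* measured 721, 736, 1102, 625 and 964 CPM in Sham Chow and 3.05, 4.90, 447, 1.08 and 10.8 in RYGB Chow (-3.15 on the log2 scale, adjusted p = 0.268), so that each RYGB Chow mouse was below the Sham Chow mice, with RYGB Chow replicate 3 far above the other 4. The interaction was -0.065 for *Id1* (adjusted p = 0.958), which had a similar change on chow (-1.43, adjusted p = 0.148).

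**Figure D4:**
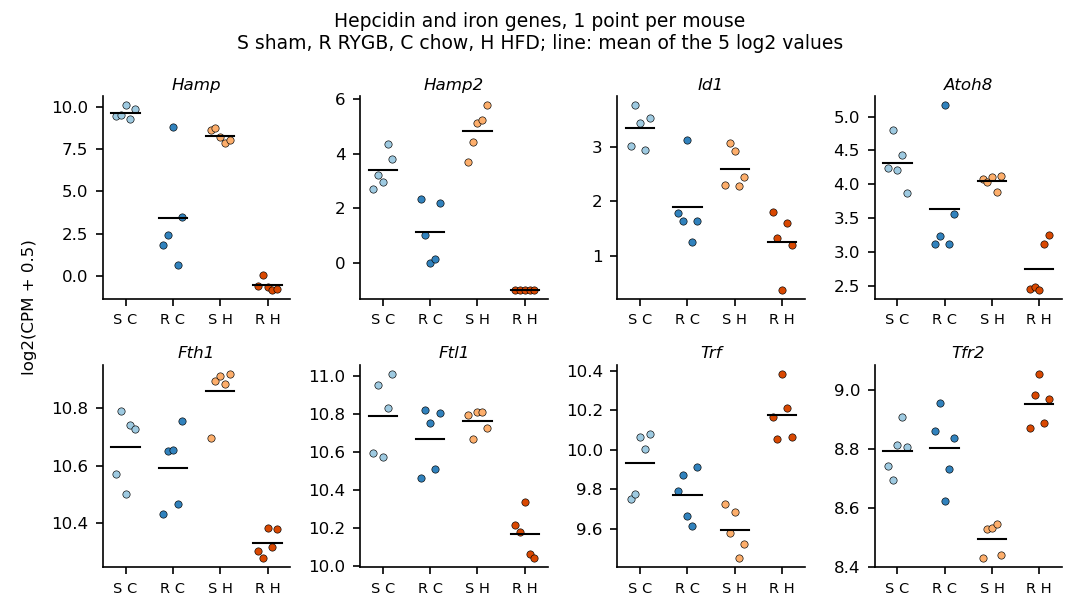
Expression of *Hamp*, *Hamp2* and 6 iron genes as log2(CPM + 0.5), with a point per mouse, a line at the mean of the 5 log2 values, the chow groups on the left, the HFD groups on the right and sham before RYGB in each pair. All RYGB HFD mice lie at 0 counts of *Hamp2* and at 0.521 CPM or less of *Hamp*, and lowest of the 4 groups in *Fth1*.

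Cholesterol synthesis was the lipid pathway with the most genes higher, 12 of 25, with 0 lower and a median log2 fold change of 0.66. SREBP2 drives these enzymes when sterols are low. *Idi1*, isopentenyl diphosphate isomerase, measured 31.2, 35.9, 35.1, 43.4 and 73.8 CPM in Sham HFD and 200.1, 122, 128, 114 and 116 in RYGB HFD (log2 fold change 1.63, standard error 0.29, adjusted p = 5.25e-04). *Sqle*, squalene epoxidase, measured 12.5, 26.1, 15.5, 20.5 and 59.6 CPM in Sham HFD and 110.5, 103, 83.1, 65.4 and 68.0 in RYGB HFD (log2 fold change 1.68, standard error 0.41, adjusted p = 0.00753). *Cyp51*, lanosterol demethylase, measured 62.9, 86.4, 81.0, 93.5 and 153 CPM in Sham HFD and 314, 281, 214, 187 and 209 in RYGB HFD (log2 fold change 1.34, standard error 0.22, adjusted p = 2.97e-04). In *Idi1*, *Sqle* and *Cyp51* the groups did not overlap. Over the whole list that held for 5 of the 25 genes, and for 14.7% of all tested genes. Sham HFD replicate 5 came near the RYGB HFD mice and was the highest Sham HFD mouse in all 12 genes called. *Nsdhl* and *Tm7sf2*, which act after *Cyp51*, were higher by 1.27 and 0.95 (adjusted p = 0.00305 and 0.00509).

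The count of 12 rose to 16 without Sham HFD replicate 5 and fell to 6 without Sham HFD replicate 1 or 3 or RYGB HFD replicate 2, and to 7 without Sham HFD replicate 2 or 4 or RYGB HFD replicate 1. With library size scaling it was 8. On chow 0 of the 25 were called (1 at an unadjusted p under 0.05) and the median was -0.20. The interaction was called for 5 genes, all higher on HFD, with 2.06 for *Idi1* (adjusted p = 0.00581) and 1.48 for *Cyp51* (adjusted p = 0.00804).

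**Figure D5:**
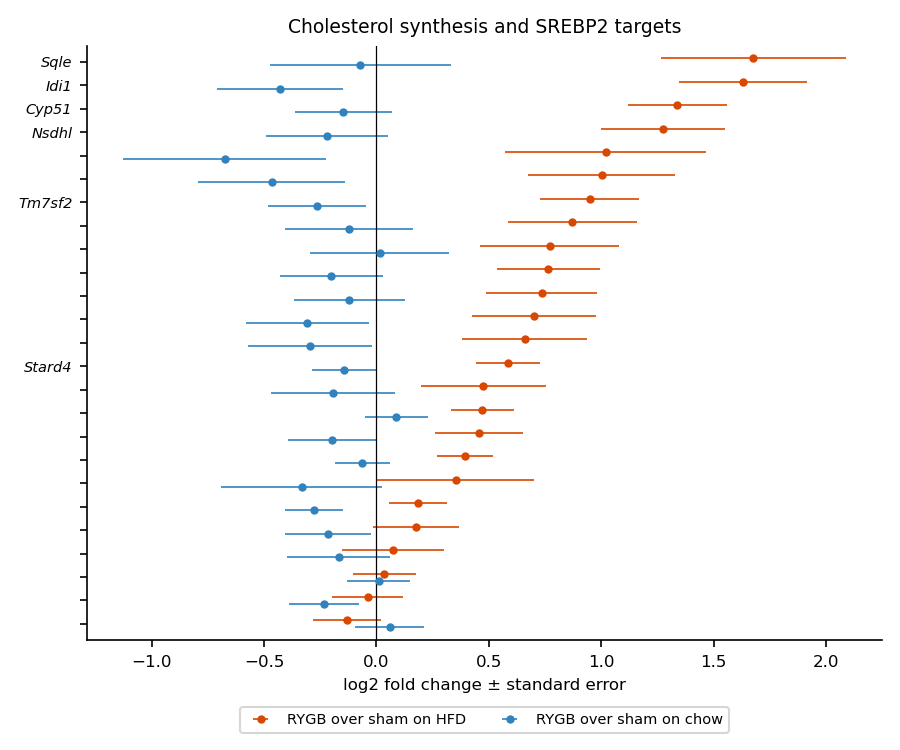
Log2 fold change of RYGB over sham, with its standard error, on HFD (orange) and on chow (blue) for 25 genes of cholesterol synthesis and its SREBP2 control, sorted by the change on HFD, with symbols for some genes. On HFD 23 of the 25 values lie above 0, with *Sqle* at 1.68 and *Idi1* at 1.63.

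Genes of fatty acid synthesis were called in both directions. Of 18 fatty acid synthesis genes 1 was higher (5.56%) and 3 lower (16.7%), against 8.54% and 7.90% of all tested genes. *Me1*, which supplies NADPH, measured 377, 309, 455, 259 and 397 CPM in Sham HFD and 89.8, 96.6, 108, 69.7 and 70.1 in RYGB HFD, 4.14-fold higher in Sham HFD (log2 fold change -2.05, standard error 0.20, adjusted p = 2.27e-06). *Scd1*, the stearoyl-CoA desaturase gene, measured 12485, 12122, 16387, 8189 and 12821 CPM in Sham HFD and 4483, 1779, 6029, 2874 and 1472 in RYGB HFD (log2 fold change -1.90, standard error 0.38, adjusted p = 0.00160). In neither gene did the groups overlap. *Elovl5* was at -0.64 (adjusted p = 0.00417), and the synthase *Fasn* was at 0.57 (adjusted p = 0.205), with a wide spread in each group. *Mlxipl*, the carbohydrate sensor ChREBP, was higher by 0.46 (adjusted p = 0.00258).

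Of 23 genes of fat uptake and lipid droplets 7 were lower (30.4%) and 0 higher, against 7.90% and 8.54% of all tested genes. Without *Mogat1* 6 of 22 were lower. *Cd36*, a fatty acid transporter, measured 263, 287, 308, 318 and 325 CPM in Sham HFD and 119, 77.4, 149, 79.5 and 95.8 in RYGB HFD (log2 fold change -1.53, standard error 0.23, adjusted p = 1.49e-04). *Cidec*, which enlarges lipid droplets, was at -2.66 (adjusted p = 0.00245), *Vldlr* at -1.77 (adjusted p = 1.54e-04) and the nuclear receptor *Pparg* at -0.61 (adjusted p = 0.00657). *Mogat1*, an acyltransferase, passed the filter only through the Sham HFD mice. The droplet coat gene *Plin2* was at -0.23 (adjusted p = 0.269). Among 29 fatty acid oxidation genes 2 were higher and 3 lower (7 lower with library size scaling and 5 with the 10 HFD mice alone), and the carnitine palmitoyltransferase *Cpt1a* was at 0.10 (adjusted p = 0.325). *Hadh* and *Acaa1b* of beta-oxidation were lower (-0.58 and -0.78, adjusted p = 1.04e-04 and 8.05e-04), and *Eci2* and *Acot1* higher (0.49 and 1.03, adjusted p = 0.00367 and 0.0299), the call of *Acot1* being lost in 6 of the 20 fits without 1 mouse. *Pdk4*, which blocks pyruvate oxidation, was at -1.89 (adjusted p = 0.00655).

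Apolipoproteins were mixed, with 7 of 29 genes higher and 4 lower. The lower count was 7 with library size scaling or without RYGB Chow replicate 3, 8 with the 10 HFD mice alone, and 2 without Sham HFD replicate 2, 3 or 5 or RYGB HFD replicate 3 or 4. *Apoa4* measured 606, 1441, 892, 616 and 813 CPM in Sham HFD and 88.2, 119, 161, 88.6 and 66.8 in RYGB HFD (log2 fold change -3.06, standard error 0.43, adjusted p = 6.40e-05), so that the lowest Sham HFD mouse was at 606 CPM and the highest RYGB HFD mouse at 161. *Apoa1*, the main protein of HDL, went the other way, from 3581, 5339, 4513, 5609 and 5942 CPM in Sham HFD to 9748, 10329, 8370.1, 8735 and 8863 in RYGB HFD (log2 fold change 0.88, standard error 0.14, adjusted p = 2.62e-04). *Apom*, the HDL receptor *Scarb1* and the sorting receptor *Sort1* were higher by 0.97, 0.62 and 1.28 (adjusted p = 6.18e-05, 9.24e-05 and 1.89e-04). The interaction was -3.46 for *Apoa4* (adjusted p = 0.00201) and 0.72 for *Apoa1* (adjusted p = 0.0423). *Apoa4* and *Fabp2*, the tested members of the gut epithelium markers, are also expressed by hepatocytes. Summed over the 5 Sham HFD and the 5 RYGB HFD mice, the untested members had 9 and 6 counts (*Vil1*), 4 and 2 (*Muc2*), 1 and 2 (*Lct*) and 0 and 0 (*Cdx2*).

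Detoxification genes of the NRF2 group were lower. Of 32 glutathione S-transferase and NRF2 target genes 18 were lower and 1 higher, with a median log2 fold change of -0.43. *Ephx1* measured 513, 444, 583, 502 and 467 CPM in Sham HFD and 209, 170.3, 179, 148 and 175 in RYGB HFD (log2 fold change -1.51, standard error 0.17, adjusted p = 9.45e-06). *Gstm3*, a glutathione S-transferase, measured 76.3, 116, 135, 64.2 and 159.7 CPM in Sham HFD and 17.9, 19.8, 17.5, 21.5 and 28.6 in RYGB HFD (log2 fold change -2.39, standard error 0.31, adjusted p = 2.71e-05). Neither gene overlapped between the groups. *Gstm1*, *Gstm2*, *Gstm4* and *Gsta1* were at -1.13, -1.60, -1.03 and -3.73, with adjusted p-values from 1.85e-05 (*Gstm1*) to 1.87e-04 (*Gsta1*). They are close paralogs that may share reads. Of the single-copy targets, the quinone reductase *Nqo1* was at -1.71 (adjusted p = 4.85e-05) and the sulfiredoxin *Srxn1* at -0.81 (adjusted p = 1.70e-04), and *Nfe2l2*, the gene of NRF2 itself, was at -0.35 (adjusted p = 0.0467), a call lost in 11 of the 20 fits without 1 mouse. On chow 0 of the 32 were called (6 at an unadjusted p under 0.05), with a median of -0.049, and the interaction was called for 10, all lower on HFD, with -3.02 for *Gstm3* (adjusted p = 3.69e-04) and -1.50 for *Ephx1* (adjusted p = 0.00175).

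Of 39 cytochrome P450 genes of families 1 to 3, 8 were higher and 10 lower, and 9 of 38 lower without *Cyp2b13*. The higher count was 5 with limma-voom or without RYGB HFD replicate 2. *Cyp2c54* measured 89.9, 21.1, 24.2, 61.2 and 30.5 CPM in Sham HFD and 185, 299.7, 222, 304 and 332 in RYGB HFD (log2 fold change 2.57, standard error 0.37, adjusted p = 7.54e-05), without overlap. *Cyp2c67* and *Cyp2c23* were higher by 1.08 and 1.19 (adjusted p = 5.83e-06 and 9.45e-06), and *Cyp1a2*, which metabolises caffeine, by 1.24 (adjusted p = 0.00241). *Cyp2c39* was at -1.98 (adjusted p = 9.45e-06). The 4 genes lowest on the log2 scale were *Cyp2b13*, *Cyp2b10*, *Cyp2a4* and *Cyp2b9*, 3 of which are in the female-biased list. Conjugation genes were lower in 7 of 25, among them *Sult2a7*, which passed the filter only through the Sham HFD mice, and higher in 2 (4 by DESeq2, 5 with the 10 HFD mice alone or without RYGB Chow replicate 3). *Ugdh*, which makes the glucuronic acid donor, was at -0.89 (adjusted p = 2.42e-05), *Ugt1a1*, the bilirubin transferase, at 0.43 (adjusted p = 0.00102) and the sulfotransferase *Sult2a8* at 0.79 (adjusted p = 0.00112). *Cyp2c* and *Ugt* genes are paralogs that may share reads.

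Bile acid genes were higher in 8 of 26 and lower in 3. *Cyp7a1*, the rate-limiting enzyme of bile acid synthesis, was at 0.69 (adjusted p = 0.303) with overlapping groups, while *Cyp27a1* of the alternative route was higher by 0.49 (adjusted p = 0.00172) and *Cyp8b1*, which makes cholic acid, was at -0.78 (adjusted p = 0.00503). The uptake transporter *Slc10a1* and the export pump *Abcb11* were higher by 0.57 and 0.58 (adjusted p = 0.00162 and 0.00233). *Abcc3*, which exports bile acids back into blood, measured 343, 393, 417, 423 and 402 CPM in Sham HFD and 185, 200.3, 218, 130.1 and 214 in RYGB HFD (log2 fold change -1.06, standard error 0.13, adjusted p = 1.94e-05), and the groups did not overlap.

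Of 35 genes of glycolysis, gluconeogenesis and glycogen 10 were lower and 0 higher. *Fbp1*, fructose bisphosphatase, measured 1269, 1317, 1433, 1259 and 1269 CPM in Sham HFD and 883, 918, 876, 897 and 802 in RYGB HFD (log2 fold change -0.58, standard error 0.067, adjusted p = 9.45e-06). The change was small beside those above, but the groups were apart. *Eno1* and *Pgam1* of glycolysis were at -0.63 and -0.44, and *Pygl* and *Gbe1*, which break down and branch glycogen, at -0.43 and -0.59 (adjusted p = 5.25e-05, 4.73e-04, 2.64e-04 and 4.78e-04). *Pck1*, a key gluconeogenic enzyme, was at 0.48 (adjusted p = 0.301). In nitrogen metabolism *Cps1*, the entry enzyme of the urea cycle, measured 2153, 1822, 1920.3, 1833 and 1985 CPM in Sham HFD and 2987, 3189.9, 3454, 3247 and 4702 in RYGB HFD (log2 fold change 0.86, standard error 0.19, adjusted p = 0.00436), and *Glul*, glutamine synthetase, was at -0.47 (adjusted p = 0.0134).

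Of 18 targets of hypoxia-inducible factors, which respond to low oxygen, 4 were higher and 4 lower, and 2 higher with library size scaling or without Sham HFD replicate 4 or RYGB HFD replicate 2. *Epas1*, the HIF-2 alpha gene, was higher by 0.79 and *Vegfa* by 0.34 (adjusted p = 0.00128 and 0.0181), while the prolyl hydroxylase *Egln1* and the kinase *Pdk1* were at -0.46 and -0.55 (adjusted p = 0.00304 and 0.00327). In the stress lists *Atf3* and *Sesn2* were at -1.51 and -0.80 (adjusted p = 0.0140 and 0.00885) and *Ern1* and *Xbp1*, of the unfolded protein response, at 0.66 and 0.56 (adjusted p = 0.00167 and 0.00567). *Atf3* passed the filter only through the Sham HFD mice. Of 19 integrated stress response targets 3 were lower, or 2 of 17 without *Atf3* and another gene that passed likewise, and 5 with DESeq2 or library size scaling, 6 without RYGB Chow replicate 3 and 7 with the 10 HFD mice alone. Of the lists with the fewest calls, *Ndufa10* and *Ndufb8* of complex I were at -0.27 and -0.28, the proteasome genes *Psmd8* and *Psmd14* at -0.29 and -0.30 and the clock repressor *Nr1d1* at 0.42. Of these 5 calls, those of *Ndufa10*, *Ndufb8*, *Psmd14* and *Nr1d1* were lost in 4 to 7 of the 20 fits without 1 mouse, and that of *Vegfa* without Sham HFD replicate 4 or RYGB HFD replicate 2.

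All 75 tested cytosolic ribosomal protein genes had a positive log2 fold change, 43 were higher and the median was 0.36. *Rpsa* measured 249, 266, 239, 248 and 260.0 CPM in Sham HFD and 319, 366, 342, 400.4 and 376 in RYGB HFD (log2 fold change 0.52, standard error 0.083, adjusted p = 2.37e-04), and *Rplp0* and *Rpl12* were higher by 0.40 and 0.62 (adjusted p = 3.34e-04 and 4.92e-04). With library size scaling all 75 stayed positive, the median was 0.27 and 22 were called, and 28 were called without RYGB HFD replicate 2. On chow the median was -0.037 and 0 were called (0 at an unadjusted p under 0.05), and the interaction was called for 15, all higher on HFD, with 0.54 for *Rpsa* (adjusted p = 0.0110). In RYGB HFD, replicate 3 was lowest in 30 of the 43 genes. These genes have many processed copies with which reads may be shared.

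Genes of the extracellular matrix were lower in 14 of 31 and higher in 1, with a median log2 fold change of -0.51, and lower in 13 of 30 without *Mmp12*, which passed the filter only through the Sham HFD mice. *Col1a1*, a chain of fibrillar collagen, measured 16.1, 22.6, 18.2, 14.9 and 15.9 CPM in Sham HFD and 4.84, 4.11, 3.34, 3.19 and 3.32 in RYGB HFD (log2 fold change -2.21, standard error 0.30, adjusted p = 4.63e-05). *Col1a2* and *Col3a1* were at -1.52 and -1.46 (adjusted p = 2.01e-05 and 7.96e-05), and in all 3 genes every RYGB HFD mouse lay below every Sham HFD mouse. *Fn1*, the fibronectin gene that hepatocytes also express, was the gene higher, at 0.43 (adjusted p = 0.00471). On chow 0 of the 31 were called (6 at an unadjusted p under 0.05), with a median of 0.11. Of 8 tested stellate cell and fibroblast markers 2 were lower, *Pdgfrb* (-0.63, adjusted p = 0.0481) and *Dcn* (-0.30, adjusted p = 0.0447), calls lost in 12 and 10 of the 20 fits without 1 mouse, and the summed level of the list was 311 to 386 CPM in Sham HFD and 228 to 385 in RYGB HFD. The part of that difference in the matrix genes was not tested.

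Markers of other liver cells were called in some lists and not in others. Of 9 Kupffer cell markers 0 were called in either direction, with *Clec4f* at 0.12 (adjusted p = 0.726), and the same held for 7 class II antigen presentation genes, 8 endothelial markers and 6 red cell markers (0 each by edgeR). At an unadjusted p under 0.05, 1 Kupffer cell, 2 endothelial and 1 red cell marker passed and 0 class II genes, and DESeq2 and limma also called 0 of these markers. The summed Kupffer cell level was 275 to 376 CPM in Sham HFD and 246 to 459 in RYGB HFD. The summed endothelial level was 253 to 408 CPM in Sham HFD and 132 to 377 in RYGB HFD. Of 2 tested monocyte and neutrophil markers *Ccr2* was lower (-1.11, adjusted p = 0.0163), a call lost without Sham HFD replicate 2 or 5. Of 4 tested B and plasma cell markers *Cd79b* was at -0.86 (adjusted p = 0.0177) and passed the filter only through the Sham HFD mice, its call being lost without Sham HFD replicate 5 or RYGB HFD replicate 2. Of 9 markers of lipid-associated macrophages 3 were lower, *Cd63* (-1.24, adjusted p = 0.00719), *Mmp12* (-1.89, adjusted p = 0.0128) and *Itgax* (-1.17, adjusted p = 0.0444), and *Fabp5* was higher (2.36, adjusted p = 4.10e-05), while the defining receptor *Trem2* was at -0.44 (adjusted p = 0.533). *Mmp12*, *Itgax* and *Trem2* passed the filter only through the Sham HFD mice, and without them 1 of 6 was lower. Their summed level was 73.5 to 112 CPM in Sham HFD and 97.6 to 109.8 in RYGB HFD. Of 4 tested bile duct markers *Tff3*, a trefoil peptide, was higher and *Krt23* lower (-2.86, adjusted p = 6.18e-05). *Tff3* measured 0.174, 0.509, 0, 0.120 and 0.526 CPM in Sham HFD and 6.96, 6.77, 2.88, 11.4 and 5.25 in RYGB HFD (log2 fold change 4.58, standard error 0.57, adjusted p = 2.22e-05), and it passed the filter only through the RYGB HFD mice.

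Of 26 interferon-stimulated genes 5 were lower and 0 higher, with a median log2 fold change of -0.48. *Rsad2* measured 15.7, 15.1, 14.4, 22.2 and 15.3 CPM in Sham HFD and 7.13, 5.52, 5.25, 7.98 and 5.18 in RYGB HFD (log2 fold change -1.41, standard error 0.16, adjusted p = 9.45e-06). *Ifit1*, *Ifit2* and *Ifit3*, which act against viral RNA, were at -1.36, -1.11 and -1.01 (adjusted p = 8.17e-04, 0.00242 and 0.00425). When only the 10 HFD mice were fitted, 11 of the 26 were lower, and 8 without RYGB Chow replicate 5.

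The effect of surgery on HFD was compared with that on chow for all genes. Of the 2021 genes called on HFD, 2 were called on chow, where 7 of the 12289 genes were called at all, and 558 (27.6%) were called in the interaction. For the others a difference between the diets was not shown. The interaction was called for 305 genes higher on HFD and 317 lower (2.48% and 2.58%), together 622 (5.06%). Among the smallest p-values were those of *C8b* (2.19), *C8a* (1.52), *Hsd3b5* (7.86), *Acnat2* (-2.57) and *Anxa2* (-2.38). In *Acnat2*, an acyl-CoA transferase gene, the change was -1.52 on HFD and 1.05 on chow (adjusted p = 4.85e-05 and 0.0713), and in *Anxa2* -2.17 and 0.21. The chow and HFD comparisons share no mice. The heavier Sham HFD mice enter only the HFD comparison, so in the interaction diet and body weight cannot be told apart.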

How the data were processed

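Poly-A RNA from the liver of each mouse was sequenced as 1 library. The authors trimmed reads with Trimmomatic 0.36, aligned them to mm10 with HISAT2 2.1.0 and deposited raw counts per gene made with featureCounts 1.5.0-p3. The annotation release, the strand setting and the treatment of multi-mapped reads are not given in the sources used here, so near-identical genes may have exchanged reads. Gene positions are from GENCODE M21 (GRCm38). Of 54532 genes, those with at least 2 CPM in at least 3 of 20 mice were tested (12289).

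Counts were fitted with edgeR 4.0.16 in R 4.3.3, with TMM factors and quasi-likelihood tests over all 20 mice with 1 mean per group, and p-values were adjusted by Benjamini-Hochberg. The interaction is the HFD difference less the chow difference. DESeq2 1.42.0, limma 3.58.1 (voom), other scaling and filters, a replicate block, the 10 HFD mice alone and fits without each mouse were alternatives. List counts without members that passed the filter through 1 HFD group only were added after seeing the data. On simulated data with 200 changed genes among 12289, drawn for Sham HFD vs. RYGB HFD, 89% of 2-fold and 99% of 4-fold changes were recovered and 9 unchanged genes were called. The changed genes were drawn from those with a mean CPM of at least 5, so recovery at lower expression was not tested. The labels do not say whether replicates were housed apart. The p-values take each mouse as independent, and whether shared housing affected them could not be tested.

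The members and gene lists were chosen with earlier results of these data known. Named genes are the 12 with the smallest p in each direction whose groups do not overlap, the first and up to 5 with the smallest p of each list, the 6 with the smallest interaction p and the 6 with the largest change in each direction, and some of these are not reported here. Of the genes named, *Mup7*, *Selenbp2*, *Ntrk2*, *Ghr*, *Hc*, *Mbl2*, *F11*, *Plg*, *Saa2*, *Orm3*, *Id1*, *Atoh8*, *Bmp6*, *Id3*, *Sqle*, *Cyp8b1*, *Abcb11*, *Cyp2c54*, *Cyp1a2*, *Nqo1*, *Srxn1*, *Nfe2l2*, *Fn1*, *Sult2a7*, *Vil1*, *Muc2*, *Lct*, *Cdx2* and *Egfr* fall outside that rule and were chosen after their values were seen.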

Additional observations from a re-analysis of the deposited data

Results flagged for a closer look

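Among 40 genes given mouse by mouse, 79 groups of 5 were examined for a mouse far from the other 4, and 12 had one, where chance gives about 1 in 20. Sham HFD replicate 1 stood apart in *Hsd3b5* (4.87 CPM), *Serpina1e* (517 CPM), *Slco1a1* (234 CPM) and *Fth1* (1659 CPM), in each toward the RYGB HFD mice. Sham HFD replicate 5 stood apart in *Idi1* (73.8 CPM) and *Sqle* (59.6 CPM), again toward the RYGB HFD mice, and Sham HFD replicate 4 in *Rsad2* (22.2 CPM). In RYGB HFD, replicate 3 stood apart in *Cyp2b9* (4.32 CPM) and *C8a* (1169 CPM), replicate 2 in *Hamp* (0.521 CPM), replicate 1 in *Idi1* (200.1 CPM) and replicate 5 in *Cps1* (4702 CPM).

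The effect of surgery differed between the diets, by the interaction in edgeR, for 305 genes higher and 317 lower on HFD, together 5.06% of those tested. It was called for 37 of the 40 genes given mouse by mouse. These 40 were named for their values in this same fit or chosen after their values were seen. Their share therefore says nothing about other genes. On the log2 scale the difference was 7.86 for *Hsd3b5*, 4.02 for *Serpina1e*, 2.98 for *Slco1a1*, 1.89 for *Cyp7b1*, 0.77 for *Igf1*, 2.15 for *Igfbp2* and 2.75 for *Egfr*. In female-biased genes it was -5.98 for *Cyp2b9*, -8.64 for *Cyp2a4* and -4.17 for *Slc22a27*. In plasma protein genes it was 1.52 for *C8a*, 2.19 for *C8b*, 0.91 for *C3*, 1.47 for *F11*, 0.86 for *Fgb*, 0.98 for *Fetub* and 1.74 for *Enho*. In iron genes it was -7.51 for *Hamp*, -9.93 for *Hamp2* and -0.46 for *Fth1*. The sizes for *Hamp* and *Hamp2* rest on RYGB HFD mice with few or no counts and are uncertain. In *Hamp*, RYGB Chow replicate 3 lay far above the other RYGB Chow mice, and the part of that mouse in the -7.51 was not tested. In lipid genes the difference was 1.48 for *Cyp51*, 2.06 for *Idi1*, -1.88 for *Me1*, -1.70 for *Cd36*, -3.46 for *Apoa4* and 0.72 for *Apoa1*. In detoxification and transport genes it was -1.50 for *Ephx1*, -3.02 for *Gstm3*, 2.68 for *Cyp2c54* and -1.02 for *Abcc3*. The others were *Fbp1* (-0.45), *Cps1* (1.03), *Rpsa* (0.54), *Rsad2* (-1.07), *Col1a1* (-1.75), *Anxa2* (-2.38) and *Tff3* (3.49). The interaction did not pass the threshold for *Id1*, *Sqle* and *Scd1*.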

How the results depend on the processing

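The 1050 higher and 971 lower genes in RYGB HFD stayed within 1.5 times under DESeq2, limma-voom, RLE factors, the other filters and the 10 HFD mice alone (815 to 1152 higher and 917 to 1224 lower). With library size alone 542 were higher and 1497 lower, and the interaction calls were 151 higher and 597 lower on HFD in place of 305 and 317. DESeq2 called 493 lower in the interaction, and without a filter 201 were higher. Without 1 mouse, 816 to 1121 genes were higher and 758 to 1100 lower, and the interaction gave 183 to 375 higher (lowest without Sham Chow replicate 5) and 202 to 427 lower (lowest without Sham HFD replicate 3). Of the lists, growth hormone axis genes higher (5) fell to 2 without RYGB HFD replicate 2, acute-phase genes lower (2) to 1 with the block or without Sham HFD replicate 2 or 5 or RYGB HFD replicate 2, 4 or 5, and stellate markers lower (2) to 0 with the block or without a filter. The cause was not tested.

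The labels do not say whether replicate numbers pair the mice. Deviations of same-numbered Sham HFD and RYGB HFD mice correlated at -0.047, 0.16, 0.077, 0.14 and -0.031. Their median was 0.077, against -0.014 for mice of other numbers. Of 5 RYGB HFD mice 3 correlated best with their own number, and so few mice cannot decide whether numbers pair them. A replicate block called 999 higher and 906 lower genes (1822 shared with the 2021) and 247 and 245 in the interaction. Of the 2021 genes called in the main fit, those also tested in an alternative were compared for direction, called there or not. Among them 0 changed direction under any alternative except 1 without Sham HFD replicate 5. Of the genes named, the block ended the calls of *Saa2*, *Acot1*, *Nfe2l2*, *Nr1d1*, *Dcn*, *Pdgfrb* and *Mup19* (adjusted p 0.0509 to 0.0764), and the call of *Id3* was lost without Sham HFD replicate 2 and those of *Hnf4a* and *Fabp2* without RYGB HFD replicate 5.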
